A study of Mus musculus with 48 samples.

Results

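The macrophage complement and heme recycling genes are 10 genes, C1qa, C1qb, C1qc, Cd5l, Timd4, Vsig4, Mpeg1, Hmox1, Slc40a1 and Sepp1, taken by symbol from a table of 24062 genes. All 10 are in the table. They were read in 48 single mouse fetal liver cells, at embryonic day 14.5. Each carries the label BFU-E (erythroid burst-forming unit), a committed progenitor upstream of CFU-E. Per the labels, beads removed cells bearing Ter119 (erythroid), CD41 (megakaryocyte), B220 or CD3 (lymphoid), Mac-1, Gr-1 or CD16/CD32 (myeloid), and CD34 or Sca-1 (stem and early progenitor). Cells with c-Kit were then kept and the 10% lowest in CD71 were sorted. The labels name no strain, animal or batch, so the 48 cells are 1 sample and no test between groups of cells was made. The cells were divided by C1qb itself: 2 cells had at least 1000 CPM, 1 cell lay between 100 and 1000 CPM, and 45 remained. CPM are reads of a gene scaled to the cell's library size after adjustment by TMM, the trimmed mean of M values. The C1qb levels beside those limits were 8038 CPM in the lower of the 2 C1qb-high cells, 338 CPM in the intermediate cell and 6.86 CPM in the highest of the remaining cells. No replicate was set aside for a test, so all values here are descriptions. Both the members and the classes of cells were chosen by measured levels of these genes in these same cells.

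Macrophages of the fetal liver sit at the centre of erythroblastic islands, where they hold maturing erythroblasts and engulf the nuclei that these expel. Complement component C1q is built of A, B and C chains, the products of C1qa, C1qb and C1qc, and marks apoptotic cells and immune complexes for uptake. Heme from ingested red cells is opened by heme oxygenase 1, and the iron set free is stored in ferritin or leaves the cell through ferroportin, the product of Slc40a1. In mouse red pulp macrophages this programme is under the transcription factor Spi-C, an Ets factor related to PU.1.

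The 3 C1q genes lie next to each other on the minus strand of chromosome 4 in GRCm38, the assembly also called mm10. C1qb spans 136880129 to 136886187, C1qc 136889804 to 136893065 and C1qa 136895917 to 136898803, and no other annotated gene lies within these 18675 bases. The others are on separate chromosomes. Cd5l is at chromosome 3, 87357881 to 87371073 (plus strand), Timd4 at chromosome 11, 46810800 to 46844332 (plus), and Vsig4 at chromosome X, 96247203 to 96293438 (minus). Mpeg1 is at chromosome 19, 12460779 to 12465283 (plus), Hmox1 at chromosome 8, 75093621 to 75100589 (plus), and Slc40a1 at chromosome 1, 45908068 to 45926523 (minus). Sepp1, named Selenop in the annotation, is at chromosome 15, 3268547 to 3280508 (plus). Of the 10 genes, Sepp1 overlaps another gene, Ccdc152 on the opposite strand, and the labels do not state stranded counting. Ccdc152 had 0 reads in both C1qb-high cells and in the intermediate cell, and 10 reads in 1 of the remaining cells.

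Promoter windows from 250 bases before to 50 bases after a start site were found in RefSeq (GRCm38.p6) for 7 of the 10 members, in 9 windows. The core GAGGAA, which PU.1 and Spi-C bind, was searched on both strands because Spi1, which encodes PU.1, and Spic were read in the C1qb-high cells, Spi1 at 343 and 491 CPM. It occurred in 6 of the 9 windows, against 28.3% of all 32851 promoter windows. By gene these were 5 of the 7, Cd5l, C1qb, C1qc, Sepp1 and Vsig4, and overlapping windows of Sepp1 share the same match. The loose pattern TGANNNNGC, searched for antioxidant response elements, occurred in 5 of the 9 windows and in 41.3% of all windows. The 5 were those of Cd5l, C1qb, C1qc, Timd4 and Vsig4, and a match to this pattern need not be such an element. The E-box CATGTG occurred in 3 of the 9 windows, those of C1qb, C1qc and Timd4, and in 14.2% of all windows. A match is a description of letters, not a bound site. The windows of C1qb and C1qc, neighbours in the C1q cluster, and of Cd5l and Vsig4, which were higher in the second C1qb-high cell, follow 5′ to 3′ on the gene's strand, with GAGGAA or its reverse complement in capitals. They are chr4:136886151-136886450 (minus) for C1qb, chr4:136892865-136893164 (minus) for C1qc, chr3:87357631-87357930 (plus) for Cd5l and chrX:96293389-96293688 (minus) for Vsig4.
C1qb: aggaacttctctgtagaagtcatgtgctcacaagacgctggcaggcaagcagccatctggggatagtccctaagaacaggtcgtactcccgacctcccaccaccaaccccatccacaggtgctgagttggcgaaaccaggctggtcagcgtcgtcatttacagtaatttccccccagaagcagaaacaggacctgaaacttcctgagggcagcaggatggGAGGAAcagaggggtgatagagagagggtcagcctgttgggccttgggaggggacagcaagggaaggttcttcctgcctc
C1qc: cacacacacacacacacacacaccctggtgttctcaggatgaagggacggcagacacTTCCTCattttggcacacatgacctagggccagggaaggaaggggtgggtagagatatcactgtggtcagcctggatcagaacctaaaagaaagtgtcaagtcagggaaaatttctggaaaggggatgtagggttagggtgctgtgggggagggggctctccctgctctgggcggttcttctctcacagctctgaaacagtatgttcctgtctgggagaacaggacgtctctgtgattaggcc
Cd5l: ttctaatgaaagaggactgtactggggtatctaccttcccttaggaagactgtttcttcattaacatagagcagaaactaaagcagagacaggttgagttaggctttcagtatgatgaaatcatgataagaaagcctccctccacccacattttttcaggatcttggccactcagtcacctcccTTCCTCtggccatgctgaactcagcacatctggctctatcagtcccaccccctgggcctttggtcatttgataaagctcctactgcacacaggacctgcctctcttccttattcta
Vsig4: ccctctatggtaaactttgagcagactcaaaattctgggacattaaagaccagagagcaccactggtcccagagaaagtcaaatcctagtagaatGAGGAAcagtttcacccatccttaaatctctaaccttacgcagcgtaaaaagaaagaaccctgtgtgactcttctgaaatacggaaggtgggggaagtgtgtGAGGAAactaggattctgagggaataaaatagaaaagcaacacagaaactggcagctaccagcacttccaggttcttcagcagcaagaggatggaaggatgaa
With the start site at 0, the core lay at −30 to −25 in C1qb, on the gene's strand. In Vsig4 it lay at −155 to −150 and again at −53 to −48, on the gene's strand. In C1qc (−193 to −188) and Cd5l (−66 to −61) it lay on the opposite strand.

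Member reads took up a like share of both C1qb-high cells, called cell A (the higher in C1qb) and cell B here. They were 46089 of 1626249 counts in cell A, or 2.83% (95% Clopper-Pearson interval 2.81 to 2.86%), and 71695 of 2498229 counts in cell B, or 2.87% (2.85 to 2.89%). In the intermediate cell they were 6616 of 1948876 counts, or 0.339% (0.331 to 0.348%). In the 45 remaining cells they were 5205 of 86916911 counts, or 0.00599%, with a median of 0.00141% and a highest cell of 0.0871%. The remaining cells held 4.02% of all member reads (3.91 to 4.12%), a share that is 6.23% without cell A and 8.99% without cell B. These intervals cover counting error only, since reads of amplified cDNA with no molecular identifiers do not count molecules. Total counts of the remaining cells ran from 246007 to 3211186, so the depth of cells A and B and of the intermediate cell lay within their range. The TMM factors of cells A and B, 0.419 and 0.579, were the lowest of the 48, against 1.19 in the intermediate cell and 0.774 to 1.70 in the remaining cells. CPM in cells A and B are therefore 2.38 and 1.73 times what total counts alone would give.

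**Figure D1:**
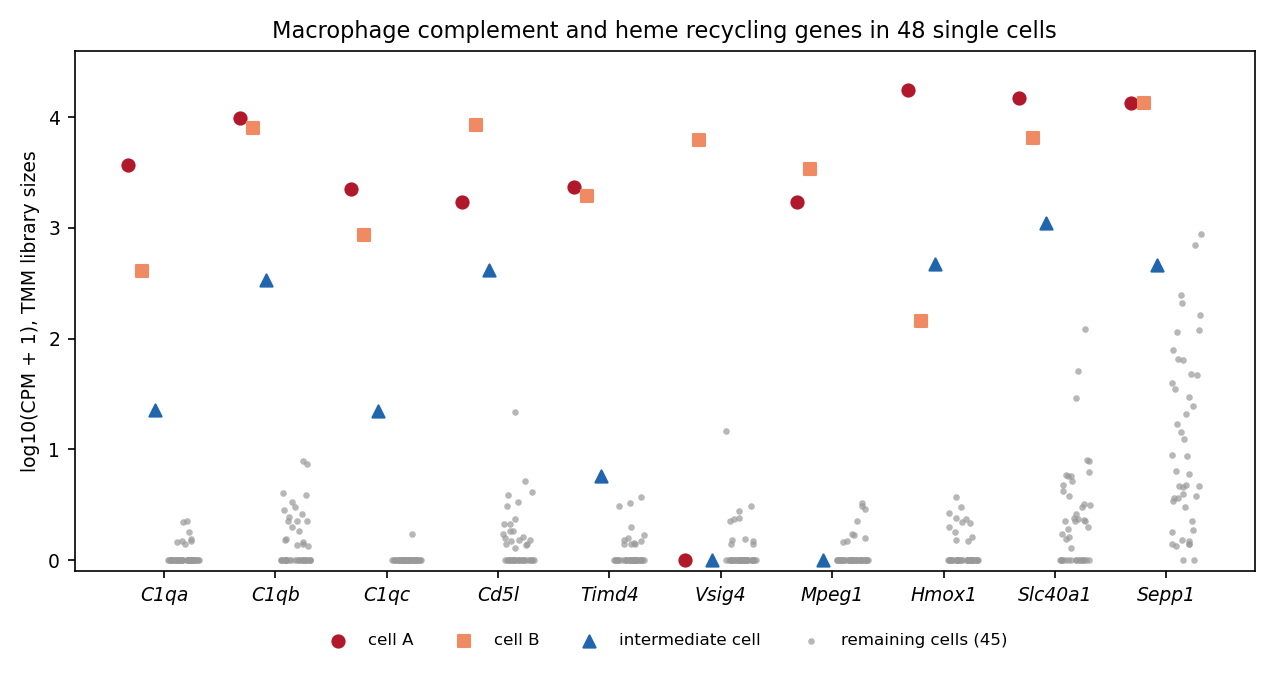
Level of each member as log10(CPM + 1) in every cell: cell A (circle), cell B (square), the intermediate cell (triangle) and the 45 remaining cells (grey points). In all but Vsig4 cells A and B lie above every remaining cell, and only Sepp1 and Slc40a1 reach 100 CPM in any remaining cell.

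Of the 10 members, 9 were at 100 CPM or more in cell A and 10 in cell B, where 7.04% and 7.54% of all genes in the table reached that level, against 5 members (8.23%) in the intermediate cell and at most 1 member (5.15 to 9.20%) in a remaining cell. Both cells lay above every remaining cell for 9 of 10 members, all but Vsig4, against 2.29% of the 10961 genes with a mean of at least 1 CPM. Mean levels in the 2 cells were at least 10-fold those in the remaining cells for all 10 members, against 7.36% of these genes. The median log2 fold of the members was 10.91 with a pseudocount of 1 CPM, from 7.64 for Sepp1 to 12.71 for Hmox1. The same median over all 10961 genes was −2.15. It was −0.07 over the 1155 of them read in every remaining cell. As C1qb chose the cells, nothing is read from these counts.

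The complement chains differed in level between the C1qb-high cells. C1qb, the B chain, had 6642 reads in cell A, 11617 in cell B, 784 in the intermediate cell and 49 in all remaining cells, of which 20 of 45 had a read. These reads gave 9740 CPM in cell A, 8038 CPM in cell B, 338 CPM in the intermediate cell and a median of 0 in the remaining cells. C1qa, the A chain, was at 3730 CPM in cell A, 407 CPM in cell B, 21.6 CPM in the intermediate cell and at most 1.26 CPM in the remaining cells. Cell A held 9.17 times the C1qa of cell B (exact counting interval 8.38 to 10.0), while its C1qb was 1.21 times that of cell B (1.18 to 1.25). On total counts without TMM factors the C1qb order of the cells turned, at −0.19 on the log2 scale for cell A over cell B, against 0.28 with TMM. C1qc, the C chain, was at 2245 CPM in cell A, 870 CPM in cell B and 21.1 CPM in the intermediate cell, and had 1 read in the remaining cells together. Cells A and B and the intermediate cell were the ones with reads of all 3 chains.

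Per kilobase of exon, the chains were not read in equal amounts in any of the 3 cells. In cell A, C1qa stood at 0.401 times C1qb (counting interval 0.383 to 0.419) and C1qc at 0.130 times (0.123 to 0.137). In cell B, C1qa stood at 0.0530 times C1qb (0.0487 to 0.0575) and C1qc at 0.0610 times (0.0575 to 0.0646). In the intermediate cell, C1qa stood at 0.0667 times C1qb (0.0491 to 0.0888) and C1qc at 0.0352 times (0.0258 to 0.0470). The lengths are unions of all annotated exons, 1040 bases for C1qa, 1088 for C1qb and 1931 for C1qc. C1qb led C1qa and C1qc in all 3 cells, and the C1qa share set cell A apart from the other two.

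Among receptors and effectors of uptake, Timd4 was alike in cells A and B and Vsig4 was not. Timd4, the phosphatidylserine receptor TIM-4 of resident macrophages, was at 2359 CPM in cell A, 1943 CPM in cell B, 4.74 CPM in the intermediate cell (11 reads) and at most 2.73 CPM in the remaining cells. The ratio of cell A to cell B was 1.21 (1.14 to 1.29), and its direction also turned on total counts, at −0.18 on the log2 scale. Vsig4, the complement receptor CRIg that binds C3 fragments, had 8979 reads and 6212 CPM in cell B, against 0 reads in cell A and in the intermediate cell. With cell A set to the floor of 3 reads, cell B was 1412-fold higher. This is not a confidence bound, as the exact Poisson upper limit of 0 reads is 3.69 reads, or 5.41 CPM in cell A. Cd5l, the secreted macrophage protein AIM, was at 1729 CPM in cell A, 8545 CPM in cell B, 418 CPM in the intermediate cell and at most 20.6 CPM (9 reads) in the remaining cells. Cell B held 4.94 times the Cd5l of cell A (4.66 to 5.25). Mpeg1, the pore-forming perforin-2 of macrophages, was at 1711 CPM in cell A, 3437 CPM in cell B, 0 in the intermediate cell and at most 2.29 CPM in the remaining cells. Cell B was the higher of the C1qb-high cells in Cd5l, Vsig4 and Mpeg1, and for Cd5l and Mpeg1 also on total counts and in the authors' log2 table. Mpeg1 in cell B was 2.01 times that in cell A (1.88 to 2.14).

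Hmox1 separated the C1qb-high cells most among the members with reads in both. Hmox1, which encodes heme oxygenase 1, had 12057 reads in cell A, 209 in cell B, 1099 in the intermediate cell and 31 over 12 of the 45 remaining cells. Cell A was at 17680 CPM, cell B at 145 CPM and the intermediate cell at 474 CPM, with at most 2.71 CPM in a remaining cell. Cell A held 122 times the Hmox1 of cell B (107 to 141), and the intermediate cell stood at 328% of cell B (283 to 382%). Slc40a1, the iron exporter ferroportin, was at 14950 CPM in cell A, 6514 CPM in cell B and 1114 CPM in the intermediate cell. The ratio of cell A to cell B was 2.30 (2.23 to 2.36). Cell B was thus low in Hmox1 and high in Slc40a1, and cell A was high in both. Cells A and B are 1 cell each, so these ratios compare 2 libraries and have no replicate error.

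**Figure D2:**
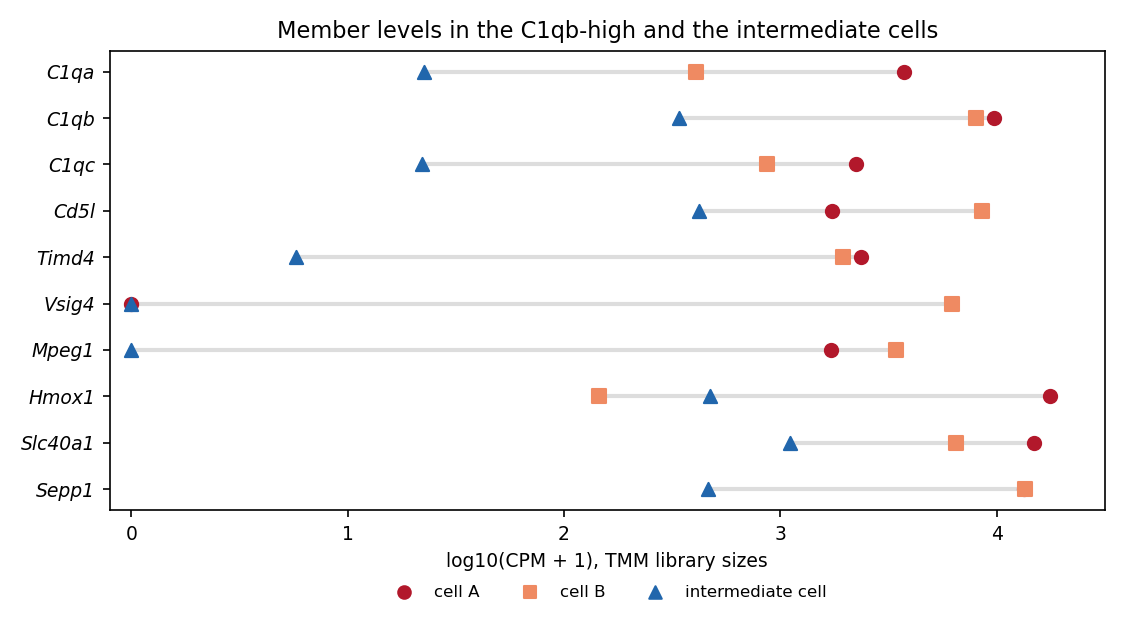
Level of each member, as log10(CPM + 1), in cell A (circle), cell B (square) and the intermediate cell (triangle), joined by a grey line per gene. Hmox1 at 17680, 145 and 474 CPM is the member in which the intermediate cell lies between cells A and B, and Vsig4 is at 0 in cell A and the intermediate cell.

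Sepp1, which encodes the selenium carrier selenoprotein P, was nearly equal in cells A and B at 13439 and 13494 CPM, and at 462 CPM in the intermediate cell. It was also the member most read elsewhere. Of the 45 remaining cells, 43 had a read of Sepp1 (exact binomial interval 84.9 to 99.5%), 20 reached 10 CPM and 7 reached 100 CPM, with a median of 5.42 CPM. These cells held 4451 of all 34192 Sepp1 reads (12.7 to 13.4%). The highest were at 888 and 704 CPM, above the intermediate cell, and held 48.8% of the Sepp1 reads of the remaining cells. Both had no read of Gata1, the erythroid master regulator, and had Mpo, the neutrophil myeloperoxidase, at 18425 and 2077 CPM. The third and the sixth, at 246 and 118 CPM of Sepp1, had Gata1 at 258 and 1096 CPM. Sepp1 was therefore read at 100 CPM or more in remaining cells with and without Gata1. Traces of the 8 members other than Sepp1 and Slc40a1 varied among the highest Sepp1 cells. The first, at 888 CPM, had 9 reads over 5 of these genes, the second, at 704 CPM, had 0, and the fourth, at 210 CPM, had 14 reads over 6.

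Slc40a1 was read in 29 of the 45 remaining cells, which held 2.46% of its reads (2.26 to 2.67%). Its median there was 1.24 CPM, and the highest cells were at 122, 49.8 and 28.4 CPM. The highest cell alone held 53.8% of these reads, and 1.14% of all Slc40a1 reads were left in the other 44 cells. The 3 highest cells had Gata1, at 429, 479 and 934 CPM. Gata1 was read in 41 of the 45 remaining cells and was at 100 CPM or more in 21 of the 45. The remaining 8 members were near their floor outside the C1qb-high and intermediate cells. Together they had 194 reads there, 0.267% of their 72661 reads in all 48 cells, at no more than 20.6 CPM in any cell. Of the 45 cells 12 had none of these reads, 12 had reads of 1 of the 8 genes, and 8 had reads of 5 or more, with at most 20 reads in a cell. Per gene, the share of reads in the remaining cells ran from 0.0352% for C1qc (1 read, 0.000892 to 0.196%) to 0.382% for Timd4 (0.223 to 0.612%). Libraries were pooled for sequencing, and whether reads of cells A and B passed to other libraries was not tested.

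The intermediate cell held macrophage and erythroid transcripts side by side. Of the 10 members 5 were at 100 CPM or more (8.23% of all genes in the table in that cell), namely Slc40a1, Hmox1, Sepp1, Cd5l and C1qb. Of the members 7 lay above every remaining cell (1.88% of the 10961 genes) and 6 were at least 10-fold the mean of the remaining cells (2.1%). Relative to cell A its members were not at 1 common fraction. Timd4 was at 0.201% of cell A, C1qa at 0.578%, Hmox1 at 2.68%, C1qb at 3.47%, Slc40a1 at 7.45% and Cd5l at 24.2%. Mpeg1 had no read, and the floor of 3 reads would be 0.0756% of cell A. Relative to cell B the members with reads ran from 0.244% for Timd4 to 17.1% for Slc40a1 and 328% for Hmox1. Vsig4 had no read, and the floor of 3 reads would be 0.0208% of cell B.

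In that cell 11 of 20 erythroid genes were at 100 CPM or more, against 0 in cells A and B and 0 to 12 (median 4) in the remaining cells. Gata1 was at 336 CPM, Klf1, an activator of globin genes, at 226 CPM, Kit, the stem cell factor receptor used in the sort, at 491 CPM and Car1, a carbonic anhydrase, at 2009 CPM. Of 32 macrophage identity genes 8 were at 100 CPM or more, among them Csf1r, the M-CSF receptor (186 CPM), and the transcription factor Maf (186 CPM). Each count alone was matched in the remaining cells, 3 of which had as many erythroid genes and 1 as many macrophage genes, but none had both. Of 12 endothelial and stromal genes 2 were at 100 CPM or more in the intermediate cell, against 0 to 1 in the remaining cells. They were Stab2 at 494 CPM and Col1a2 at 122 CPM, against at most 47.1 and 63.2 CPM in the remaining cells. Both had 0 reads in cells A and B. The cell had reads of 7803 genes, a number that 3 of the 48 cells exceeded, at a mid-range total count. Chambers of the chip were inspected for a cell, per the labels, and whether this one held more than 1 cell was not tested. It is given no cell type name.

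**Figure D3:**
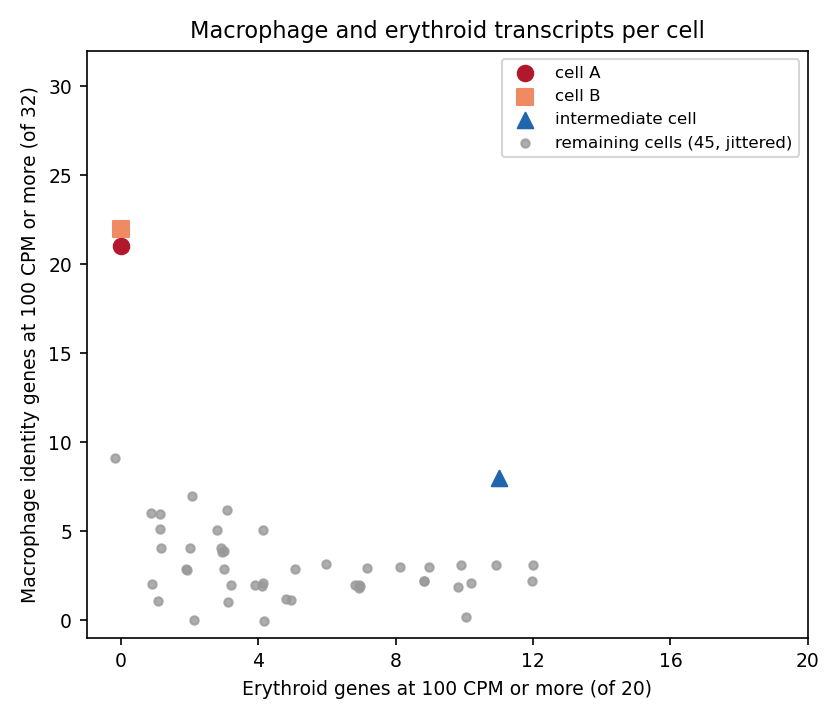
Number of erythroid genes (horizontal axis, of 20) and of macrophage identity genes (vertical axis, of 32) at 100 CPM or more in each of the 48 cells. Cells A and B have 0 erythroid and 21 and 22 macrophage genes, the intermediate cell has 11 and 8, and no remaining cell (grey, jittered) has as many of both.

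The label of cells A and B was set against marker lists. Of 32 macrophage identity genes 21 were at 100 CPM or more in cell A and 22 in cell B, against 0 to 9 in the remaining cells, and 19 had both cells above every remaining cell. Vcam1, the adhesion molecule that holds erythroblasts in islands, was at 3078 CPM in cell A, 4232 CPM in cell B and at most 2.43 CPM in the remaining cells. Fcna, a ficolin, was at 3313 CPM in cell A and 4434 CPM in cell B, and Emr1, which encodes F4/80, at 591 CPM in cell A and 6897 CPM in cell B. Csf1r was at 30.8 CPM in cell A, less than the 91.5 CPM of the highest remaining cell, and at 2384 CPM in cell B. Siglec1 (26.4 CPM), Cd14 (7.33 CPM), Id3 and Irf8 (0 reads) were also below 100 CPM in cell A and above it in cell B. Cx3cr1 (24.2 CPM) and Nr1h3 (19.4 CPM) were below it in cell B and above it in cell A. Summed over the list, levels were 49143 CPM in cell A, 54806 CPM in cell B, 3072 CPM in the intermediate cell and 94.8 to 3907 CPM in the remaining cells. Erythroid genes summed to 70.4 CPM in cell A, 8.30 CPM in cell B, 5995 CPM in the intermediate cell and 113 to 9269 CPM in the remaining cells. Kit, which the sort required, had 5 reads in cell A and 2 in cell B. Itgam, which encodes Mac-1 and was depleted against, had 0 reads in both, and its median in the remaining cells was also 0. Fcgr3, which encodes the likewise depleted CD16, was at 521 CPM in cell A and 1438 CPM in cell B. It was at 100 CPM or more in 15 of the 45 remaining cells, the highest at 782 CPM. Fcgr2b, which encodes CD32, had 0 reads in cells A and B. Of the lists for other cell types, cell A had 1 of 16 neutrophil and monocyte (Calr), 1 of 11 megakaryocyte (Pf4) and 1 of 12 hepatoblast genes at 100 CPM or more. Cell B had 1 of 16 neutrophil and monocyte (Calr, as in cell A), 1 of 12 hepatoblast (Trf, as in cell A) and 1 of 12 endothelial and stromal genes (Cdh5). Calr was also at 100 CPM or more in 41 of the 45 remaining cells. Neither had any of 8 mast cell and basophil or 9 lymphoid genes at that level. By these markers cells A and B are macrophage-like, against their label BFU-E.

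Among other complement genes, 5 of 26 were at 100 CPM or more in cell A and in cell B, against 1 to 4 in the remaining cells. Cfp, which encodes properdin and stabilises the alternative pathway convertase, was at 4777 CPM in cell A, 4440 CPM in cell B, 253 CPM in the intermediate cell and at most 196 CPM in the remaining cells. C5ar1, the C5a receptor, had 631 reads in cell A and 52 in cell B. C1ra and C1s1, which encode the proteases that pair with C1q, and C2, C3 and C4b, which act next in the classical pathway, had 0 reads in cells A and B and in the intermediate cell. Of these, C1s1, C2 and C4b had no read in any of the 48 cells. The mean of cells A and B was at least 10-fold over that of the remaining cells for 5 of the 26 genes and at least 10-fold under it for 4. Of the 10961 genes with a mean of at least 1 CPM, 7.36% were over and 35.7% under by that much, and the 26 include genes that do not reach this mean.

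Of 26 other genes of heme and iron recycling, 8 were at 100 CPM or more in cell A, 10 in cell B, 12 in the intermediate cell and 2 to 9 in the remaining cells. The shares over all genes in the table were 7.04%, 7.54% and 8.23% in these 3 cells. The mean of cells A and B was at least 10-fold over that of the remaining cells for 6 of the 26 and at least 10-fold under it for 7. Hmox2 was at 7.33 CPM in cell A and 0.692 CPM in cell B, against a remaining median of 52.0 CPM. Steap3 had 0 reads in both, and Tfrc had 1 read in cell A and 1252 CPM in cell B. Spic, which encodes Spi-C, was at 1377 CPM in cell A, 967 CPM in cell B and 323 CPM in the intermediate cell, and at most 2.29 CPM in the remaining cells. Ftl1, the ferritin light chain, was at 81726 CPM in cell A, 32625 CPM in cell B, 3367 CPM in the intermediate cell and at most 3202 CPM in the remaining cells. Fth1, the heavy chain, was at 26289 CPM in cell A and 13382 CPM in cell B, and both ferritin genes have near-identical copies in the genome, so their counts are uncertain. Blvra and Blvrb, which encode the biliverdin reductases that act after heme oxygenase, were at 1613 and 688 CPM in cell A and at 896 and 1154 CPM in cell B. Slc11a1, the phagosomal iron transporter NRAMP1, was at 830 CPM in cell A, 2908 CPM in cell B and at most 27.4 CPM in the remaining cells. Mafk, a partner of Nrf2 and Bach1 at antioxidant elements, was at 1430 CPM in cell A and 0 in cell B. It had 0 reads in the intermediate cell. Nfe2l2, which encodes Nrf2, and Bach1 were at 8.80 and 2.93 CPM in cell A and at 7.61 and 0 CPM in cell B. Nqo1, Gclm and Txnrd1 were at 0, 10.3 and 5.87 CPM in cell A and at 0, 2.77 and 7.61 CPM in cell B. The intermediate cell had Nqo1 at 0, Gclm at 307, Txnrd1 at 257, Nfe2l2 at 100 and Bach1 at 41.8 CPM. Of these, Gclm lay above the highest remaining cell (252 CPM). The receptor Cd163 for hemoglobin with haptoglobin had 3 reads in cell A and 22 in cell B. In the intermediate cell the heme and iron genes at 100 CPM or more included Slc48a1, a heme transporter of the lysosome, at 434 CPM, and Ireb2, an iron sensor, at 597 CPM, both of which were higher in a remaining cell.

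Phagocytic receptors were read at 100 CPM or more for 11 of 24 genes in cell A and 12 in cell B, against 2 in the intermediate cell and 0 to 5 in the remaining cells. Mertk, a receptor for apoptotic cells, was at 477 CPM in cell A, 179 CPM in cell B and at most 0.536 CPM in the remaining cells. Axl, its relative, was at 348 CPM in cell A and 2322 CPM in cell B. The scavenger receptors Marco (185 CPM in cell A, 5766 CPM in cell B) and Cd36 (2.93 CPM in cell A, 1521 CPM in cell B) were on the side of cell B, and Itgb5, an integrin of uptake, on that of cell A (2383 CPM in cell A, 126 CPM in cell B). Of 28 lysosomal genes 21 were at 100 CPM or more in cell A, 24 in cell B, 11 in the intermediate cell and 2 to 13 in the remaining cells. Ctsb, a cathepsin, was at 56806 CPM in cell A, 21589 CPM in cell B, 4428 CPM in the intermediate cell and at most 1418 CPM in the remaining cells. Dnase2a, which digests the DNA of engulfed nuclei, was at 64.5 CPM in cell A and 2937 CPM in cell B. Of 12 genes of selenoprotein synthesis and uptake 1 was at 100 CPM or more in cell A, 2 in cell B, 4 in the intermediate cell and 1 to 6 in the remaining cells. Summed over the list, levels were 8647 CPM in cell A, 3776 CPM in cell B, 3009 CPM in the intermediate cell and 281 to 7962 CPM (median 3203) in the remaining cells. Gpx1, a glutathione peroxidase, made up most of the sum in cells A and B, at 8552 CPM in cell A and 2970 CPM in cell B, against at most 7102 CPM in the remaining cells.

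**Figure D4:**
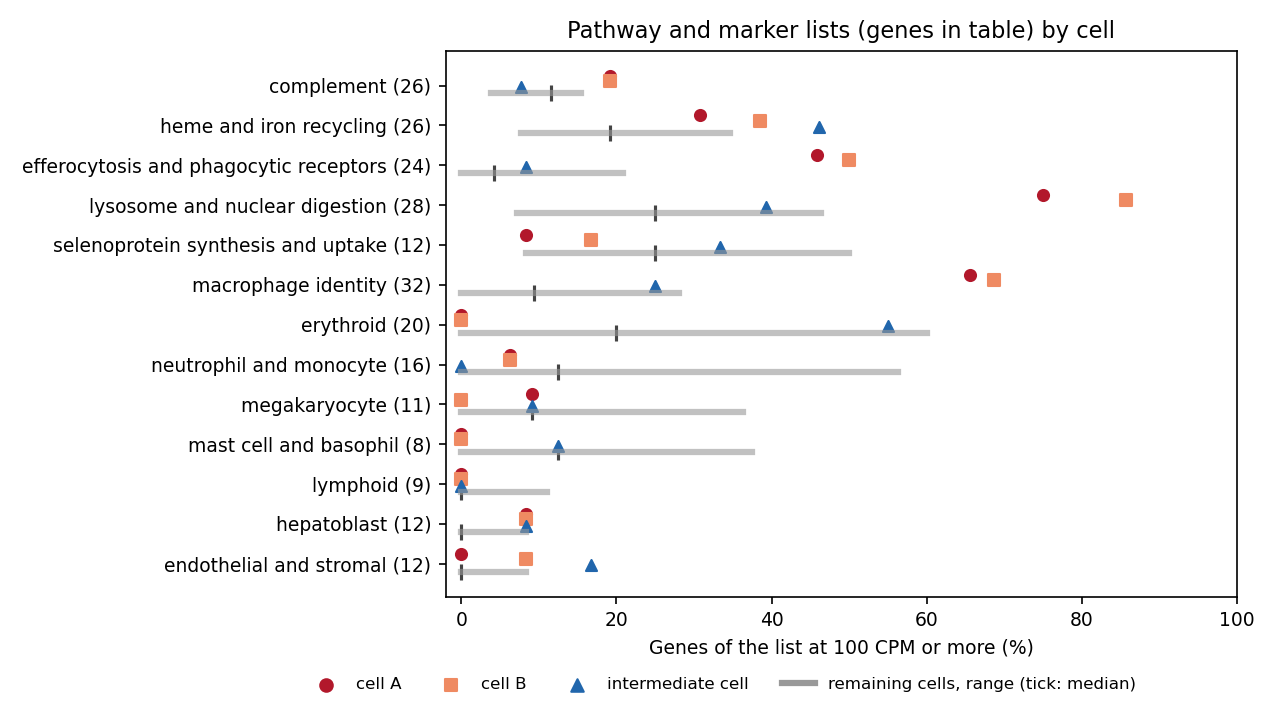
Percent of each list's genes at 100 CPM or more in cell A (circle), cell B (square), the intermediate cell (triangle) and the 45 remaining cells (grey bar, lowest to highest; tick, median), with the number of genes in the table in brackets. Cells A and B lie right of every remaining cell for phagocytic receptors, lysosome and macrophage identity, and at 0 of 20 erythroid genes. For complement they also do, at 5 genes each against at most 4, but cell B has 4 on total counts without TMM factors.

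Genes whose pattern was most like that of the members over the 48 cells were ranked by Pearson's r of log2(CPM + 1) with the members' mean, among 9224 other genes of at least 5 CPM on average. The first 12 included Ctsh, Lgmn, Ccl24, Igf1, Aif1, Fcna, Vcam1, Mertk, Fpr1, Spic and Tmem106a, with r from 0.980 to 0.956. The same 3 cells set each r, so it describes those cells. Lgmn, the lysosomal protease legumain, was at 12002 CPM in cell A, 6049 CPM in cell B, 122 CPM in the intermediate cell and at most 11.4 CPM in the remaining cells. Igf1, a growth factor, was at 3359 CPM in cell A, 2554 CPM in cell B, 170 CPM in the intermediate cell and at most 2.29 CPM in the remaining cells. Ranked by the lower C1qb-high cell over the highest remaining cell, the first 10 genes were C1qb, Vcam1, Igf1, Il1a, Mpeg1, Timd4, C1qc, Lgmn, Spic and Tgfbi, 4 of them members.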

How the data were processed

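Whole-transcriptome products of single cells were made on the Fluidigm C1 with SMART-Seq chemistry and Nextera XT libraries, per the labels' protocols, and carry no molecular identifiers. The submitters' processing notes name TopHat2 2.0.12, Subread and featureCounts 1.4.6, and the build mm10. The authors deposited raw counts per gene (24062 genes, 48 cells) and a log2 table, found from the values to be log2 of the count divided by a size factor, plus 1. The column names could not be tied to single samples, so all 48 cells were treated as 1 sample and no test was made. No column was left out (0 columns of per-sample values were not mapped). Total counts per cell were 246007 to 3211186.

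CPM were computed on TMM library sizes (edgeR 4.0.16, R 4.3.3). Intervals are 95%, exact Poisson or Clopper-Pearson (scipy 1.17.1), and ratios of counts use the exact binomial. The floor is 3 counts. Folds are the log2 of the ratio of mean CPM, with 1 CPM added to each mean, for genes of at least 1 CPM on average. Lengths are exon unions from the GRCm38 annotation. Scripts were tested on simulated data. No doublet caller was run. Members, lists and limits were chosen with earlier results of these data known. The genes named from all genes were the first 12 by likeness to the members' mean and the first 10 by separation, by level lost in the C1qb-high cells, by cell A against cell B, and by the intermediate cell. Some genes that these rules name are not reported here. Further genes named from a list were chosen after their values were seen. Alternatives were total counts in place of TMM, the authors' log2 table, thinning to the shallowest cell, other pseudocounts, levels and C1qb limits, and leaving out cell A or cell B.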

Additional observations from a re-analysis of the deposited data

How the results depend on the processing

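C1qb limits of 500 and 2000 CPM left the same 2 cells. Of 239 alternative values, 194 kept to the value reported within its interval or within 1.5 times, 42 moved and 3 turned direction. Many of the 194 could not change, so the tally does not measure robustness. With the same 2 cells, all 26 list counts were fixed at each of the other C1qb limits. The share of member reads in the remaining cells uses raw reads, so total counts and the authors' log2 table could not move it. The order of cell A over cell B turned for C1qb (−0.19) and Timd4 (−0.18, log2) on total counts and for Sepp1 (0.20, against −0.01) in the authors' log2 table. Each of these scalings is 1 factor per cell, so it shifts the log2 ratio of cell A to cell B equally for every gene. Ratios near 1 can therefore turn direction by the scaling alone. The share of member reads in the remaining cells, 4.02%, was 6.05% with every cell thinned to the shallowest, and 6.23% and 8.99% without cell A and without cell B. Thinning also gave 0.420 for C1qa to C1qb per length in cell A, 0.0398 for it in cell B, 0.0649 for C1qc to C1qb in cell B, and 2.85% for the members' share of counts in cell B. The median log2 fold of the members, 10.91, was 9.91 on total counts, 12.71 with a pseudocount of 0.1, 8.09 with one of 10 and 10.23 without cell A. Of 26 counts of list genes in cells A and B, 10 moved by over 1.5 times at a level of 10 CPM, and 1 in the authors' table. No paired analysis was possible because the labels give 1 group and no test was made. A count of 0 was set to the floor of 3 counts for ratios, and 2 cells cannot show how such cells vary.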

Other observations

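Further genes also had both C1qb-high cells above every remaining cell. Il1a, which encodes interleukin 1 alpha, was at 1802 CPM in cell A and 1548 CPM in cell B, against 0 in the intermediate cell and at most 1.05 CPM in the remaining cells. Trf, which encodes the iron carrier transferrin, was at 6106 CPM in cell A, 7132 CPM in cell B, 614 CPM in the intermediate cell and at most 866 CPM in the remaining cells. In the other direction, the genes lowest in cells A and B among the 1155 read in every remaining cell were Ube2v1, Tipin, Top2a, Ahcy, Fam111a, Adh5, Ezh2, Nhp2l1, Nmt2 and Ndufs7. Top2a, a topoisomerase of dividing cells, was at 2.93 CPM in cell A, 0.69 CPM in cell B and 45.3 CPM in the intermediate cell, against a median of 478 CPM in the remaining cells.

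Cells A and B differed widely beyond the members. At 200 CPM or more there were 1349 genes in cell A and 1388 in cell B, and 558 were so in both. Among the genes at that level in cell A, 220 had no read in cell B, and among those at that level in cell B, 274 had none in cell A. The genes most on the side of cell A were Slc35f6, Fam78a, Dab2, Tceb3, Mief1, Zbtb41, Cd300ld, Maml2, Map3k2 and Dcaf11, and those most on the side of cell B included Vsig4, Nedd9, Tmed3, Eif4enif1, Stk38, Rassf4, Shc1, Bmpr2 and Fos. The same measure for 2 remaining cells was not computed, so nothing is called particular to these cells.

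The genes by which the intermediate cell stood furthest over the remaining cells were Gbp8, Jazf1, Ccl6, Atp6v0e2, Hmox1, Fam83e, Spic, Pltp, Il18 and Hook2. Jazf1 was at 289 CPM, Atp6v0e2 at 250 CPM, Fam83e at 158 CPM and Hook2 at 67.7 CPM in that cell, and each had 0 in cells A and B. The chemokine gene Ccl6 was at 1076 CPM in cell A, 42.9 CPM in cell B and 269 CPM in the intermediate cell.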
